A study of Homo sapiens with 6 samples.

Results

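The 9 genes described here encode surface proteins by which myeloid leukemia cells are placed along the path from stem cell to monocyte or granulocyte. They were fixed as a list: CD34 and PROM1 (CD133) as stem cell markers, CD33 and CD38 as markers of stages between, and ITGAM (CD11b), ITGAX (CD11c), CD14, CD86 and FCGR1A (CD64) as markers of differentiation. They are 9 of 20136 protein-coding genes annotated on hg19 and 9 of 19675 on hg38. For each gene, all peaks in the gene body with 20 kb on either side were taken from 4 peak lists. These windows held 164 of the 327715 peaks of sgNeg H3K27Ac, 109 of 317059 in sgNpm1A H3K27Ac, 110 of 353628 in sgNeg H3K4me3 and 30 of 106641 in sgNpm1A H3K4me3.

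The lists came from OCI-AML3, a cell line established from a patient with acute myeloid leukemia, in which NPM1 is mutated (mtNPM1). Cells received a control guide RNA (sgNeg) or sgNpm1A, a guide RNA directed at the mutant gene, and were cultured for 3 days per the labels, while the study's text gives a longer time. Acetylation of lysine 27 of histone H3 (H3K27Ac), found at active enhancers and promoters, and trimethylation of lysine 4 (H3K4me3), found at active promoters, were each mapped in 1 library per guide RNA. Of 6 samples, 2 were inputs and were not analysed here. No group had a replicate, so there is no p-value, the guide RNA and the library cannot be told apart, and each difference is between a pair of libraries. The labels name OCI-AML3 for all samples, but the deposited H3K27Ac lists carry another tag than the H3K4me3 lists, whose meaning was not settled. The marks are therefore described side by side. Where positions or values of both marks are combined below, they show that the lists coincide, not that both marks came from the same cells. Peaks show where a mark was enriched, not how much of a protein is on the cell surface, and neither editing nor NPM1 protein can be read from these lists.

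CD34 is a sialomucin of hematopoietic stem and progenitor cells and PROM1 a pentaspan membrane glycoprotein found on some of them. CD33 is a sialic acid binding receptor (Siglec) that appears early in the myeloid lineage, and CD38 is an ectoenzyme that uses NAD and is gained as stem cells become progenitors. ITGAM and ITGAX are the alpha chains that pair with ITGB2 to form complement receptors of granulocytes, monocytes and dendritic cells. CD14 binds lipopolysaccharide for TLR4, CD86 is a ligand of CD28 on antigen-presenting cells, and FCGR1A is the high-affinity receptor for IgG. Many myeloid genes of this kind have promoters that are poor in CpG and are bound by PU.1, the ETS factor encoded by SPI1.

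The 250 bases upstream of the start are shown for 5 genes, because they differ in CpG content and in words bound by known factors, and because CD33, CD38 and CD14 carried the strongest H3K4me3 peaks near a RefSeq start while CD34 and ITGAM had none within 1 kb of it. They are RefSeq sequences on GRCh38.p14, written 5′ to 3′ on the gene's own strand. Capitals mark GAGGAAG, a core of the PU.1 site, or its other strand CTTCCTC, and in CD14 also CTGTCA, the other strand of the MEIS word TGACAG.
CD34 (chr1:207911126-207911375, minus strand): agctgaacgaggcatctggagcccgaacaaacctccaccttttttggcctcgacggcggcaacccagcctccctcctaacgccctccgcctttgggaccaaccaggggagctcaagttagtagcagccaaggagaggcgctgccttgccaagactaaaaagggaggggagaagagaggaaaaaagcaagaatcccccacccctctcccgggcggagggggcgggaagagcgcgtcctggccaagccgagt
CD33 (chr19:51224830-51225079, plus strand): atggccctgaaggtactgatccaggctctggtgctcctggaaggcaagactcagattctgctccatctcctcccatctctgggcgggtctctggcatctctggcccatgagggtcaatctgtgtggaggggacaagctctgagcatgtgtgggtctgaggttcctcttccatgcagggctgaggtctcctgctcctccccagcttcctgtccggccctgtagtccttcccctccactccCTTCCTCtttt
CD38 (chr4:15778078-15778327, plus strand): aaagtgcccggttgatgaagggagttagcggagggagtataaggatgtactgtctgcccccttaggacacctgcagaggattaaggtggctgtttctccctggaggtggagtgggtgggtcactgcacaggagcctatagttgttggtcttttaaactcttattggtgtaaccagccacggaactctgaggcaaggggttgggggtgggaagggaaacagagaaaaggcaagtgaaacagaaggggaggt
ITGAM (chr16:31259725-31259974, plus strand): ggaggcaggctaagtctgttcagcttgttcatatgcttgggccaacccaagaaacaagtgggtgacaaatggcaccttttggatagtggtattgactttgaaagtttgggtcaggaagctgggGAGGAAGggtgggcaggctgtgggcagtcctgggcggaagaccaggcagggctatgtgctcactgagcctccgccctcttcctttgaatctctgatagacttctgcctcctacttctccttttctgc
CD14 (chr5:140633176-140633425, minus strand): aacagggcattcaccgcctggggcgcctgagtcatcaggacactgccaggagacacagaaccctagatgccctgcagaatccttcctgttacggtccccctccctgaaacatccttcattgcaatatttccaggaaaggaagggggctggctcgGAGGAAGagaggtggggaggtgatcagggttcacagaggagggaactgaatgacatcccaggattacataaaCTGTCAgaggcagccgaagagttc

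The promoter table held 8 of the 9 genes, with 12 promoters, and ITGAX was not among them. The CpG ratio (CpG observed over expected from C and G content) had a median of 0.711 over 22199 protein-coding promoters. It was 0.590 in CD34 and between 0.248 and 0.903 in the 4 promoters of PROM1. CD33 had 0.0938, CD38 0.206, ITGAM 0.115, CD14 0.268, FCGR1A 0.101, and the CD86 promoters 0.283 and 0.238. All promoters of the differentiation markers and of CD33 and CD38 were thus in the lowest 25% of all promoters (up to 0.341), and 4 of the 5 promoters of the stem cell markers were above it. The PU.1 word stood in 6 of the 12 promoters (50%), against 11.9% of all promoters. Its positions, counted back from the start, were −11 to −5 in CD33, −127 to −121 in ITGAM, −96 to −90 in CD14, −77 to −71 in CD86, −47 to −41 in FCGR1A and −184 to −178 in a PROM1 promoter. CD34 and CD38 held no match in this window. The MEIS word was present in CD14 and in the downstream CD86 promoter, 2 of 12, against 12.1% of all promoters. The RUNX word TGTGGTT (3.13% of all promoters) and the C/EBP word TTGCNNAA (7.50%) had no match in any of the 12. Both strands were searched, and a match is a run of letters, not a bound site.

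A promoter peak is one that overlaps the 1 kb on either side of an annotated transcript start, and other peaks of a window are called distal. On hg19 every GENCODE start was used. On hg38 only the RefSeq starts at hand were used, which gave 1 to 4 starts per gene, against 4 to 18 on hg19, so a gene had more chances of a promoter peak with H3K27Ac than with H3K4me3. Fold enrichment is scaled within a list, so the highest promoter peak is given by its percentile of fold in its own list, with 0 for no peak. In sgNeg H3K27Ac all 9 genes had a promoter peak, where 79.2% of all protein-coding genes did. With sgNpm1A 7 of 9 had one, against 57.1%. For H3K4me3 4 of 9 had one in sgNeg, against 68.3%, and 0 of 9 with sgNpm1A, against 9.49%. At the start of the gene record itself, 6 of 9 genes had a H3K27Ac peak in sgNeg (69.9% of all genes) and 4 of 9 with sgNpm1A (32.4%). The bases within 1 kb of a start were covered to 29.6%, 14.8%, 6.49% and 0% in the lists in the order above, against 28.0%, 12.5%, 22.6% and 1.91% over all genes. The H3K27Ac shares were close to those of all genes, and the H3K4me3 shares were lower. Of the whole genome the lists covered 7.12%, 6.29%, 3.04% and 1.80%. The sgNpm1A H3K4me3 list thus covered promoters hardly more than the rest of the genome, and the absence of promoter peaks from it at any of these genes is to be read beside that.

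**Figure D1:**
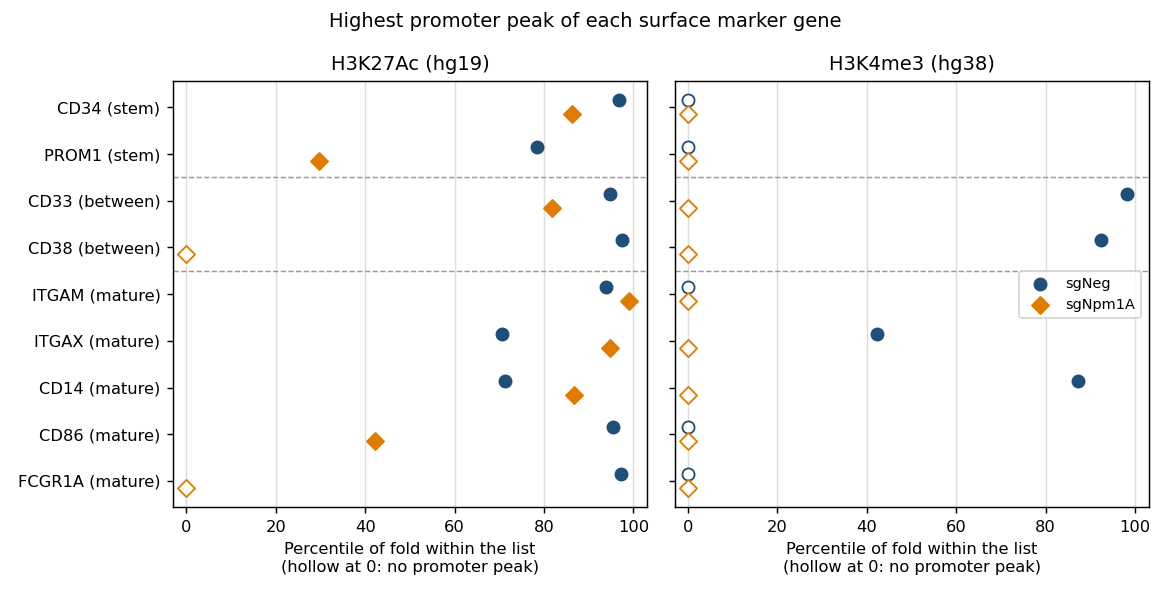
Percentile of fold, within each peak list, of the highest promoter peak of each gene (x axis, percent) for H3K27Ac and H3K4me3, with circles for sgNeg and diamonds for sgNpm1A, 1 library each, and hollow symbols at 0 for no promoter peak. ITGAM, ITGAX and CD14 are further right with sgNpm1A for H3K27Ac, and no gene has a promoter peak in sgNpm1A H3K4me3.

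Both stem cell markers had H3K27Ac at internal transcript starts, and neither had H3K4me3 within 1 kb of the RefSeq starts, the only ones at which that mark was counted. For CD34 (chr1:208054317-208084747 on hg19, minus strand) the highest H3K27Ac promoter peak in sgNeg was 7309 bp wide and 4.16-fold enriched, at percentile 96.7. It lay at chr1:208059331-208066639, between 18108 and 25416 bp inside the gene, and ranked 1702 by width in its list. With sgNpm1A the highest was a peak of 339 bp and 3.36-fold within the same interval, at percentile 86.2. The start of the gene record had no peak in sgNeg and a peak of 676 bp and 2.88-fold, percentile 41.3, with sgNpm1A. The most enriched H3K27Ac peaks of the CD34 window were distal. In sgNeg it was a peak of 187 bp at −3112 to −2926 bp from the start (chr1:208087673-208087859, 5.03-fold, percentile 98.3), and with sgNpm1A a peak of 507 bp inside the gene (chr1:208074408-208074914, 4.32-fold, percentile 98.9). For H3K4me3 the CD34 window held 42 peaks in sgNeg and 15 with sgNpm1A, all distal, the most enriched 6.45-fold (30 fragments at the summit) and 5.34-fold (20 fragments), both downstream of the gene. In sgNeg a peak of 221 bp lay just past the 1 kb limit, at −1260 to −1040 bp from the RefSeq start. Further H3K4me3 peaks lay at the same distance from that start as H3K27Ac peaks at internal starts, such as 11255 to 11992 bp in sgNeg (3.74-fold) and 11667 to 12002 bp with sgNpm1A (3.82-fold).

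The CD34 window was the most covered of the 9 in every list. Peaks spanned 36.7% of it in sgNeg H3K27Ac, 31.1% in sgNpm1A H3K27Ac, 16.0% in sgNeg H3K4me3 and 10.5% in sgNpm1A H3K4me3, against medians of 9.82%, 6.75%, 3.71% and 1.01% over the windows of all genes. The 1 Mb on either side was densely covered too, at 21.5%, 27.1%, 13.8% and 11.1%. With sgNpm1A the CD34 window was therefore close to its surroundings for both marks, and in sgNeg it was higher for H3K27Ac.

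PROM1 (chr4:15964699-16086001 on hg19, minus strand) had the lowest H3K27Ac of the stem and intermediate markers in sgNeg. Its highest promoter peak there was 497 bp wide and 3.05-fold, at percentile 78.5 and near an internal start, 97249 to 97745 bp into the gene. With sgNpm1A the highest was 911 bp and 2.81-fold, at percentile 29.6, 112055 to 112965 bp into the gene. The start of the gene record had no peak in sgNeg and 1 of 212 bp and 2.66-fold with sgNpm1A, at percentile 6.43, among the weakest of that list. H3K4me3 gave 20 peaks in the PROM1 window in sgNeg and 5 with sgNpm1A, none of them within 1 kb of its 4 RefSeq starts, of which 1 has the upstream sequence with a CpG ratio of 0.903. The distances that follow are counted from the RefSeq start, not from the start of the hg19 record as above. At internal starts further into PROM1, a sgNeg H3K4me3 peak of 119 bp (100214 to 100332 bp) lay at the distance of a sgNeg H3K27Ac promoter peak (100142 to 100865 bp). Further H3K4me3 peaks met a H3K27Ac promoter peak of the other guide RNA only. They were a sgNeg peak of 199 bp (112250 to 112448 bp, H3K27Ac at 111700 to 112610 bp) and a sgNpm1A peak of 796 bp and 3.82-fold (96790 to 97585 bp, H3K27Ac at 96894 to 97390 bp). Coverage of the window was 8.17% and 6.93% for H3K27Ac and 2.38% and 1.91% for H3K4me3, each pair with sgNeg first.

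CD33 and CD38 had the highest H3K4me3 promoter percentiles of the 9 genes in sgNeg, with H3K27Ac over the start as well. For CD33 (chr19:51728320-51747115 on hg19, plus strand) the H3K27Ac peak over the start was 2143 bp wide and 3.71-fold, at percentile 94.8. With sgNpm1A there was no peak within 1 kb of that start, and the promoter peak listed was one of 304 bp and 3.27-fold at an internal start. It lay 13739 to 14042 bp into the gene, at percentile 81.7. A sgNpm1A peak of 524 bp and 3.33-fold lay just past the limit, at −1697 to −1174 bp from the RefSeq start. With 2 kb the sgNpm1A percentile of CD33 was 85.2. The CD33 H3K4me3 peak in sgNeg was the strongest promoter peak of that mark among the 9 genes. It spanned 818 bp from 529 to 1346 bp after the start (chr19:51225609-51226426 on hg38), was 6.86-fold enriched with 32 fragments at its summit (95% Poisson interval 21.9 to 45.2), and ranked 6690, at percentile 98.1. In sgNpm1A H3K4me3 the CD33 window held 2 peaks, neither near a start, and the more enriched was 5.34-fold, far upstream at −26008 to −25458 bp from the start, where sgNeg had a 4.78-fold peak. On hg38 the RefSeq record of CD33 begins further upstream, at chr19:51211076, and its window is 68.9 kb against 58.8 kb on hg19. Both sgNpm1A H3K4me3 peaks therefore lie outside the window used for H3K27Ac.

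CD38 (chr4:15779898-15854855 on hg19, plus strand) had a H3K27Ac peak of 1524 bp and 4.48-fold over its start in sgNeg, rank 8328 and percentile 97.5, the highest of the 9 genes. No promoter peak was present with sgNpm1A, where the window still held 12 peaks against 18 in sgNeg. The H3K4me3 peak at the CD38 start in sgNeg was 547 bp wide and 4.58-fold, with 21 fragments (13.0 to 32.1) at the summit and at percentile 92.4, and no such peak was listed with sgNpm1A. Toward the end of the gene, 73489 to 73750 bp from the start, all 4 lists had a peak, 3.00-fold and 3.44-fold for H3K27Ac and 4.37-fold and 4.83-fold for H3K4me3, with sgNeg first. The start of CD38 thus had its peaks in the sgNeg lists, whereas the distal position near the end of the gene was marked in both.

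Among the differentiation markers, ITGAM, ITGAX and CD14 had a higher H3K27Ac percentile with sgNpm1A than with sgNeg, and CD86 and FCGR1A a lower one. Over all genes 18.4% were higher and 65.7% lower. All 4 genes of the other classes were lower, so that 6 of 9 genes were lower in all, close to the share among all genes. The direction was not stable for several genes. In 7 other settings, PROM1 was higher with sgNpm1A in 3 and CD34 in 2. ITGAX was higher in 5 and lower in 2, and CD14 was higher in 4 and lower in 2. ITGAM was higher in 7 of 7, but not once its peak over repeated words, described below, was left out. For H3K4me3, 4 of 9 were lower with sgNpm1A, against 65.7% of all genes, and the other 5 had no promoter peak in either list.

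ITGAM (chr16:31271288-31344213 on hg19, plus strand) had its highest peak not at its start but 68324 to 69059 bp into the gene (the peak in sgNeg). This H3K27Ac peak was 736 bp and 3.57-fold in sgNeg, at percentile 93.7, and 1478 bp and 4.34-fold with sgNpm1A, at percentile 98.9 and rank 3444. It counts as a promoter peak because an annotated transcript starts within 1 kb. The start of the ITGAM record had weak peaks only, 285 bp and 2.64-fold in sgNeg, percentile 27.03, and 439 bp and 2.81-fold with sgNpm1A, percentile 29.8. H3K4me3 had no peak within 1 kb of the RefSeq start but had peaks at the same distance, 764 bp and 6.45-fold in sgNeg with 30 fragments (20.2 to 42.8), and 654 bp and 4.32-fold with sgNpm1A with 16 fragments (9.15 to 25.98).

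The stretch of ITGAM under peaks of all 4 lists was 654 bp long, from 68375 to 69028 bp after the start. Its central 300 bases are shown because the highest peaks of the gene in both marks sit on them. They lie in an intron, at chr16:31339847-31340146 on hg19, plus strand, with no exon or UTR record over them and a GC content of 48%, and no base is in capitals because none of the searched words occurs.
ITGAM intron: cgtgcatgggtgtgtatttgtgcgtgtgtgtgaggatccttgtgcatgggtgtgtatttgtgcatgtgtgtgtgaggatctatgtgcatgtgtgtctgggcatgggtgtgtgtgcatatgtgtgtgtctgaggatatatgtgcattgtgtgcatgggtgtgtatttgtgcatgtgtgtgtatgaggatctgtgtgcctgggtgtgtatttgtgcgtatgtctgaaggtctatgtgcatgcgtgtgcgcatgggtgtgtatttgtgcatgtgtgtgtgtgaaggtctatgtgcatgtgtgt
The stretch repeats words rich in TG. In the 300 bases at the middle of the 654 bp, 41.9% of the 12-base words occurred more than once. The same measure at the middle of the sgNeg H3K27Ac peak was 34.3%, higher than in 99.2% of the list's 9624 peaks on chromosome 16. At the middle of the wider sgNpm1A peak it was 4.15%. Of 164 H3K27Ac peaks of the 9 windows in sgNeg, this was the only one with at least 20% of such words, and of 109 with sgNpm1A none had. Among all peaks of chromosome 16 at or above percentile 98, 10.4% (28 of 268) in sgNeg and 26.3% (52 of 198) with sgNpm1A had at least 20%. Without the peak over this stretch, the ITGAM H3K27Ac percentile was 39.0 in sgNeg and 38.8 with sgNpm1A, and ITGAM was no longer among the genes with a higher value. The part of the repeated words in the peaks was not tested.

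ITGAX (chr16:31366455-31394320 on hg19, plus strand) lies next to ITGAM, and their windows share peaks. Its highest H3K27Ac promoter peak in sgNeg was 2813 bp wide and 2.95-fold, at percentile 70.6. With sgNpm1A it was 1546 bp and 3.68-fold at percentile 94.8, inside the gene at the same internal start (chr16:31382530-31384075). At the start of the ITGAX record the order was the opposite, with 3488 bp and 2.91-fold at percentile 66.2 in sgNeg and 913 bp and 2.74-fold at percentile 18.4 with sgNpm1A. The H3K4me3 peak near the start in sgNeg was narrow, 142 bp and 3.12-fold with 14 fragments (7.65 to 23.5) at percentile 42.4, and with sgNpm1A there was none. Coverage of the ITGAX window was 21.4% in sgNeg and 11.3% with sgNpm1A for H3K27Ac, whereas that of the surrounding 1 Mb was 16.5% and 6.61%.

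CD14 (chr5:140011313-140013285 on hg19, minus strand) is a gene of 1.97 kb. Its H3K27Ac peak in sgNeg was 1813 bp wide, spanned nearly the whole gene, and was 2.96-fold at percentile 71.3. With sgNpm1A the peak there was narrower and more enriched, 523 bp and 3.37-fold at percentile 86.8, and no longer within 1 kb of the record's start. H3K4me3 in sgNeg gave 265 bp and 4.16-fold with 19 fragments (11.4 to 29.7), percentile 87.3, and 128 bp and 2.70-fold with 12 fragments, percentile 11.8, and neither was listed with sgNpm1A. Coverage of the CD14 window was 30.7% in sgNeg H3K27Ac and 8.55% with sgNpm1A, and 9.24% and 2.03% for H3K4me3. That window holds the starts of other genes, and its most enriched H3K27Ac peak in sgNeg, 5.87-fold at percentile 99.1, was at the start of TMCO6, and no sgNpm1A peak overlapped it.

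CD86 (chr3:121774209-121839986 on hg19, plus strand) had wide H3K27Ac peaks inside the gene in sgNeg, 4674 bp and 3.34-fold at percentile 90.3, and 4091 bp and 3.82-fold at percentile 95.5. With sgNpm1A, 1 promoter peak of 623 bp and 2.88-fold at percentile 42.3 was listed, within the first of these. The second also held a sgNpm1A peak, of 878 bp and 3.30-fold at percentile 83.6, which lay more than 1 kb from a start. With 2 kb the sgNpm1A percentile of CD86 was 83.6. The start of the CD86 record had no peak in either list. Coverage of the window was 22.6% and 6.38%, against 6.24% and 4.75% in the surrounding 1 Mb, so the CD86 window stood further above its surroundings in sgNeg than with sgNpm1A. No H3K4me3 peak lay near its starts, and the window held 3 peaks of that mark in sgNeg and 0 with sgNpm1A.

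FCGR1A (chr1:149754227-149763231 on hg19, plus strand) had a peak of 154 bp and 4.37-fold within 1 kb upstream of its start in sgNeg H3K27Ac, at percentile 97.2, and a weak internal one of 300 bp and 2.70-fold. The other 3 lists had 0 peaks in its whole window. FCGR1A has near-identical copies on the same chromosome, so reads from this gene are uncertain, and its values of 0 may not be read as absence of the mark.

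**Figure D2:**
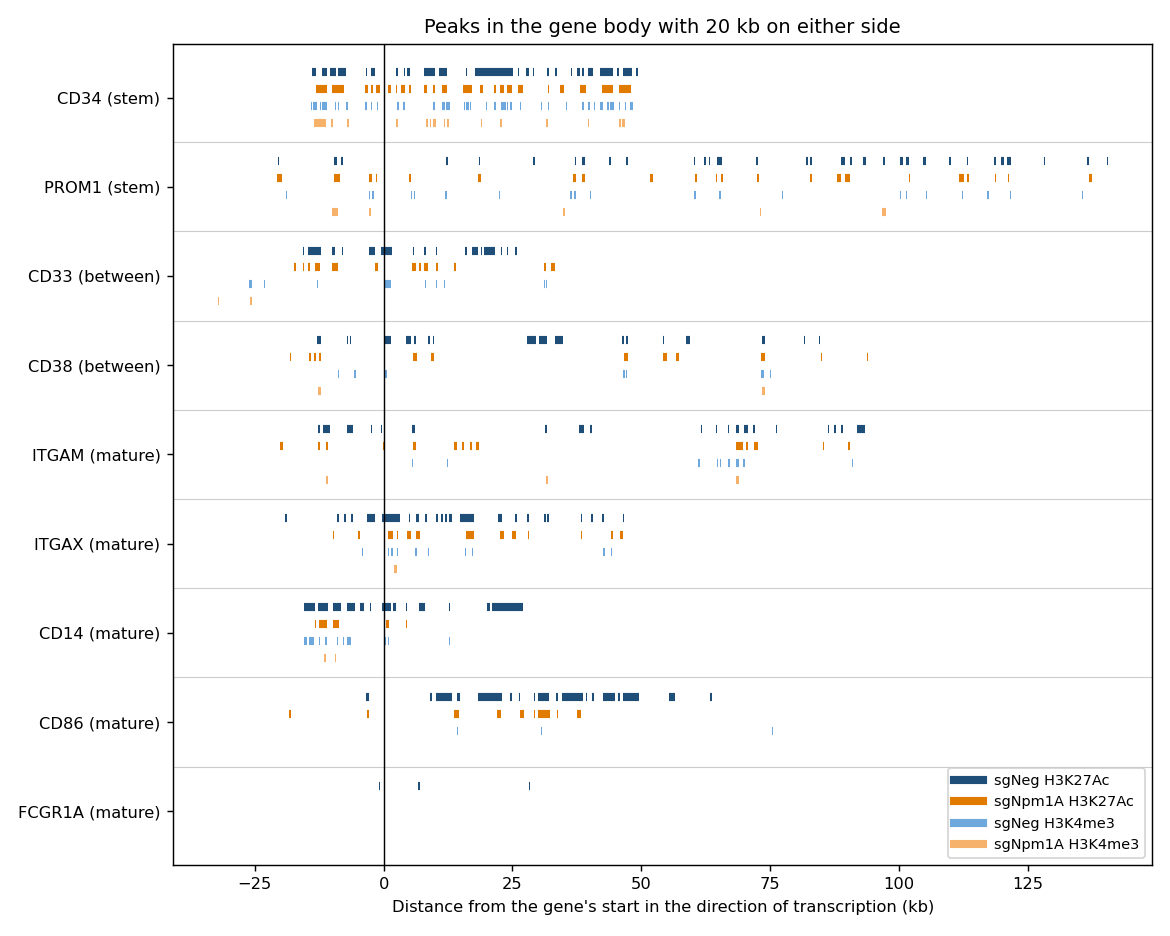
Peaks in the window of each gene (y axis) by distance in kb from the gene's start in the direction of transcription (x axis), with a row of bars for each of the 4 lists and bars under 250 bp drawn at 250 bp. ITGAM has a bar in all 4 lists near 68375 bp, CD38 near 73489 bp, and FCGR1A has bars in sgNeg H3K27Ac only.

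The contrast of the classes rested on few genes and on how promoters were defined. The median H3K27Ac promoter percentile of the stem cell markers was 87.6 in sgNeg and 57.9 with sgNpm1A, that of CD33 and CD38 was 96.2 and 40.9, and that of the differentiation markers was 93.7 and 86.8. The differentiation markers were thus 6.15 percentile points above the stem cell markers in sgNeg and 28.9 with sgNpm1A. These are medians over 2 and 5 genes of 1 library, and the order did not hold under several other settings. Without the ITGAM peak over repeated words the differentiation markers were 16.3 points below in sgNeg (−16.3) and 15.6 points below with sgNpm1A (−15.6). For H3K4me3 in sgNeg the median was 0 for the stem cell markers, 95.2 for CD33 and CD38 and 0 for the differentiation markers, of which ITGAX and CD14 had a peak. Over all promoters, H3K4me3 peaks in sgNeg lay within 1 kb of 36.7% of starts in the lowest 25% of CpG ratio and of 84.9% in the highest 25%. Of the 6 genes with all their promoters in the lowest 25%, CD33, CD38 and CD14 had such a peak and ITGAM, CD86 and FCGR1A did not. CD34 and PROM1 had none within 1 kb of a RefSeq start. With 2 kb, 6 of 9 genes had a peak in sgNeg H3K4me3, and the median of the differentiation markers was then below that of the stem cell markers (−55.4). The share of all genes was not counted at that width. Counted by distance from the start, a sgNeg H3K4me3 peak met a sgNeg H3K27Ac promoter peak in 7 of 9 genes, CD34 and PROM1 among them. A sgNpm1A H3K4me3 peak met a H3K27Ac promoter peak of either guide RNA in 4 of 9. In PROM1 and ITGAX, which are among these, the H3K27Ac peak that was met was in the sgNeg list only. Such meetings were not counted over all protein-coding genes, so they cannot be read as a trait of these genes.

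Distal peaks numbered 145 in sgNeg H3K27Ac and 93 with sgNpm1A, and 104 and 30 for H3K4me3, each counted once where windows overlap. The stem cell markers held 54 and 39 of the H3K27Ac distal peaks, the differentiation markers 59 and 30, and CD33 and CD38 32 and 24. Of these, 2 and 1, 6 and 4, and 2 and 1 lay within 1 kb of a start of another protein-coding gene. The windows differ in length and number, so the counts do not rank the classes. With peaks of a q-value under 0.01 only, the H3K27Ac order turned, with 32 distal peaks in sgNeg and 42 with sgNpm1A. The whole lists were not counted at that limit, so this turn cannot be told apart from a turn of the lists. The share of H3K27Ac peaks of the windows that overlapped a peak of the other guide RNA was 45.7% (75 of 164) in sgNeg and 70.6% (77 of 109) with sgNpm1A, against 50.7% and 51.4% over all peaks. It was 58.6% and 77.8% for the stem cell markers and 37.5% and 71.8% for the differentiation markers. For H3K4me3 it was 20% (22 of 110) and 56.7% (17 of 30), against 22.6% and 61.2%. The differentiation markers' median GC content of H3K27Ac peaks was 47.8% in sgNeg and 51.5% with sgNpm1A, with 43.9% in their windows, and that of the stem cell markers was 47.2% and 47.7%.

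**Figure D3:**
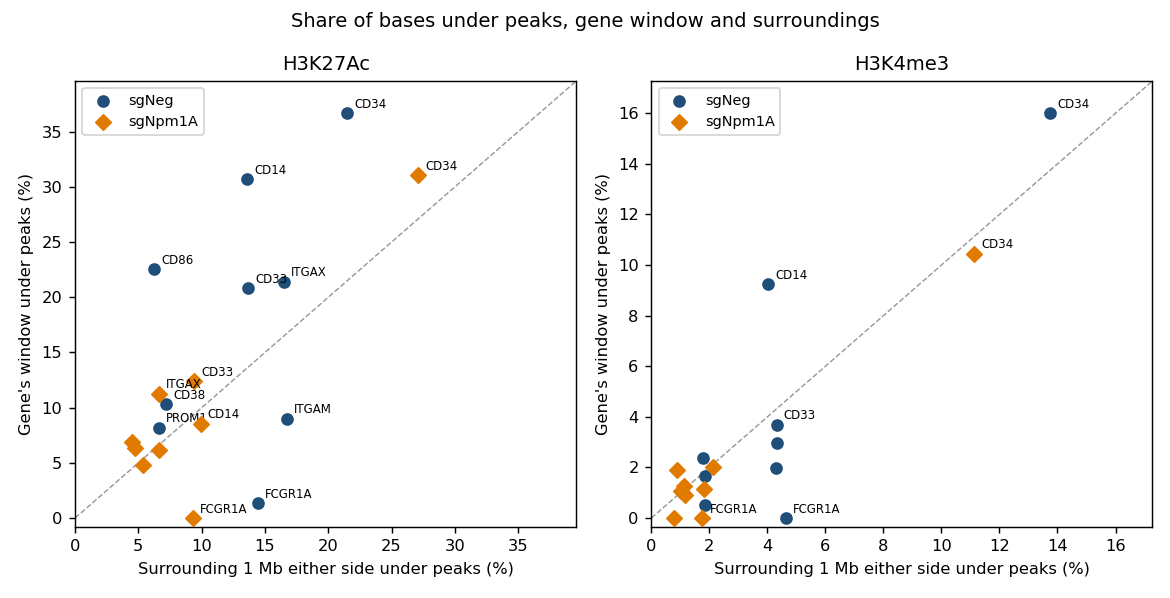
Share of each gene's window under peaks (y axis, percent) against that of the 1 Mb on either side (x axis, percent), for H3K27Ac and H3K4me3, with 1 point per gene and guide RNA and the line of equal shares dashed. CD34 is the most covered in every list, CD86 and CD14 stand far above the line in sgNeg H3K27Ac, and FCGR1A is below it.

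Counted from the start of each gene, placed on hg19 by a unique match of the RefSeq upstream sequence, or for ITGAX by the start of the record, 13 positions were under a peak of all 4 lists, 2904 bp in all, of which 7 were at least 200 bp long. CD34 held 9 of the 13 and 4 of the 7, and its window was the most covered of the 9 in every list. Such positions were not counted over all genes, so these counts cannot be told apart from the dense coverage of that window. The shortest position was 8 bp, and distances were matched between builds without conversion. The 4 were at −11918 to −11656 and −11517 to −11216 bp upstream and at 9606 to 9992 and 11667 to 11992 bp inside the gene. The others of at least 200 bp were those of ITGAM and CD38 given above and 1 upstream of CD14, at −11419 to −11089 bp. PROM1, CD33, CD86 and FCGR1A had none. In the 6 other than that of ITGAM, between 0 and 2.08% of the 12-base words occurred more than once.

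Other surface markers showed where the 9 genes stand. Of 12 further stem and progenitor markers, 9 had a promoter peak in sgNeg H3K27Ac and 6 with sgNpm1A, and 6 and 3 had one for H3K4me3. Of 20 further mature markers, the counts were 17, 12, 12 and 2. The H3K27Ac percentile was higher with sgNpm1A in 2 of 12 and 3 of 20 and lower in 8 of 12 and 14 of 20, against 18.4% and 65.7% of all genes. The mature markers ITGAM, ITGAX and CD14 were thus not joined by most others of their class. In sgNeg H3K27Ac the highest of the stem and progenitor markers were CD93, a lectin-like receptor, at percentile 99.5, the adhesion receptor ADGRG1 (GPR56) at 98.7, and CD47, the ligand of SIRPA, at 97.9. The highest mature markers were FUT4, which makes the CD15 epitope, at 99.9, SIRPA at 99.7 and ITGB2, the beta chain that pairs with ITGAM and ITGAX, at 99.2. In sgNeg H3K4me3 the highest were CD44, the hyaluronan receptor, at 98.4, IL1RAP at 97.8, and CD93 and CD47, both at 96.7. The mature markers in that list were led by FUT4 at 99.6, TLR2 at 99.2 and CD4 at 97.6. A percentile of at least 90 in sgNpm1A H3K27Ac, reached by 11.0% of all genes and in sgNeg by 52.8%, together with a higher value than in sgNeg, was found for ADGRG1 (99.7), ITGB2 (99.7, from 99.2) and the complement receptor CR1 (95.6, from 78.4), beside ITGAM and ITGAX.

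**Figure D4:**
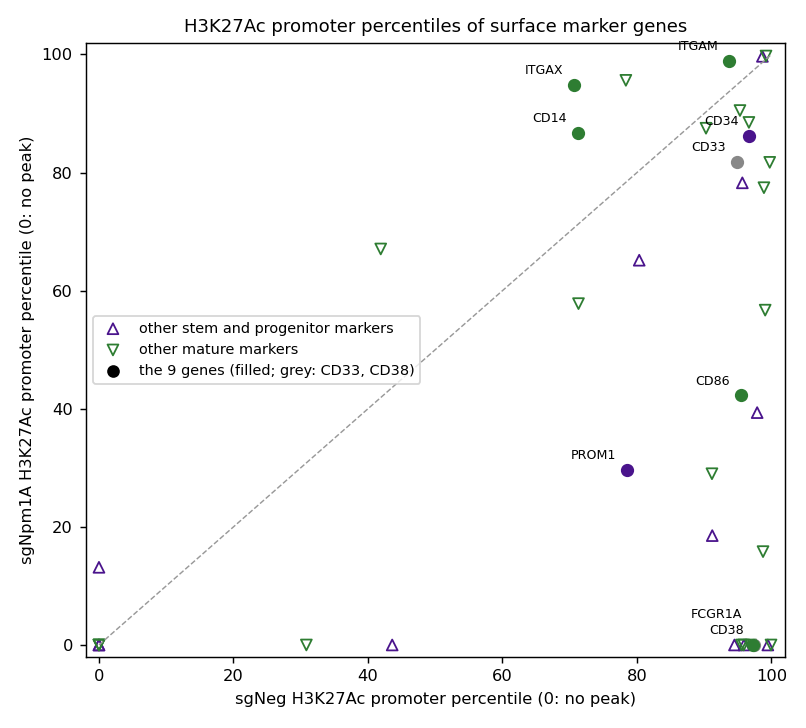
H3K27Ac promoter percentile in sgNeg (x axis) and with sgNpm1A (y axis), 0 for no peak, with the 9 genes as filled points and 32 other surface markers as open triangles, and equal values on the dashed line. ITGAM, ITGAX and CD14 are above the line, and CD38 and FCGR1A lie at 0 on the y axis.

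The identity of the sgNeg cells was checked by markers of cell types. In sgNeg H3K27Ac 10 of 10 myeloid genes had a promoter peak, with a median percentile of 97.1 and 9 at or above 90. Over all protein-coding genes 79.2% had such a peak, the median was 92.4 and 52.8% were at or above 90. A peak was present in 4 of 5 T cell, 5 of 5 B cell and 3 of 5 erythroid genes. The medians of these were 25.3, 69.2 and 46.2. With sgNpm1A 7 of the 10 myeloid genes had a peak, against 57.1% of all genes. Their median was 34.4, against 30.4 for the T cell, 59.7 for the B cell and 19.8 for the erythroid genes. Over all genes the median was 23.2. All 10 myeloid genes, CD33 included, were lower with sgNpm1A, against 65.7% of all genes. The 3 differentiation markers with a higher percentile thus stood in a library in which the myeloid list as a whole lay below the B cell list. It lay above the T cell and erythroid lists there.

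Across 19101 genes with values in all 4 lists, genes with promoter percentiles near those of CD33 included CMTM3, at a Euclidean distance of 0.990 percentile points. The nearest to CD14 were CCDC28B at 3.98 and CELSR2 at 4.14, and to ITGAX RARRES2 at 4.17 and WHRN at 4.83. The distance rests on 4 values per gene, of which that of sgNpm1A H3K4me3 is 0 in all of them.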

How the data were processed

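Groups were taken from the sample titles, with 1 library each. Per the labels, chromatin was tagmented with Tn5 (ChIPmentation) and the submitters' processing notes name bcl2fastq 2.17, Trimmomatic 0.33, Bowtie 1.1.2, MACS2 2.1.0, deepTools and hg38. The use of the inputs, the calling limit and a Tn5 shift were not given in the sources used here. Peaks on chromosome 1 reached 249218478 in the H3K27Ac lists, past its end in hg38, so those are on hg19, and the H3K4me3 lists are on hg38 (chromosome 17 up to 83201881). No coordinates were converted. Fold enrichment was deposited as a ratio (pileup over expected pileup of the library). The authors' lists give each peak a p-value and a q-value on a −log10 scale, and the deposited score (from the q-value) was not used.

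From these, peaks on 24 chromosomes were ranked by fold within each list. An overlap was at least 1 bp. Starts were those of GENCODE version 44 mapped to hg19, and for hg38 those of RefSeq (GRCh38.p14). H3K4me3 folds equal (pileup + 1)/(background + 1) with a background of 3.81 (sgNeg) and 2.93 (sgNpm1A) fragments, which gave whole fragments for 100% of peaks within 0.05 of a fragment. Poisson intervals of 95% cover counting error only, and PCR copies cannot be told from molecules. The depth of the libraries is unknown. Python 3.11.15, pandas 2.3.3, numpy 2.4.6 and scipy 1.17.1 were used, and overlap and percentile functions were tested on simulated data. All 9 genes are named. Of the other markers, the 3 highest per class and sgNeg list are named, with those at or above percentile 90 in sgNpm1A H3K27Ac and higher there than in sgNeg. The nearest genes are given for the 3 genes with the highest sum of percentiles, and 1 of them is not reported here. The members, lists and measures were chosen with earlier results of these data known, and the measure of repeated words after the ITGAM sequence had been seen. Alternatives were other promoter widths, flanks, limits on q-value, fold or p-value, and ranking by q-value or width.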

Additional observations from a re-analysis of the deposited data

How the results depend on the processing

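No paired analysis was possible because each group had 1 library. Of 115 values under other settings, 63 stayed close, 45 moved and 7 changed sign. Counts as far apart as 9 and 6 genes were taken as close. The 63 include the promoter values of sgNpm1A H3K4me3, which were 0 throughout and which no stricter limit could change. In the order sgNeg H3K27Ac, sgNpm1A H3K27Ac, sgNeg H3K4me3, genes with a promoter peak numbered 1 and 0 (H3K27Ac) at a q-value under 1e-05, 3 and 1 at a fold of at least 4, and 5, 2 and 1 among the 20000 peaks of lowest p, and 4 in sgNpm1A H3K27Ac by the start of the record only. Distal peaks in the 4 lists were 77, 50, 53 and 15 without flanks and 255, 184, 204 and 61 with 50 kb, 4, 0, 19 and 6 at a q-value under 1e-05, 7, 1, 15 and 9 at a fold of at least 4, and 11, 3, 7 and 8 among the top 20000. At a q-value under 0.01 they were 32 and 42 for H3K27Ac. The top 20000 also left 1 gene lower in sgNpm1A H3K4me3. Of these settings, only the start of the record was also counted over all genes (32.4% in sgNpm1A H3K27Ac). The other counts cannot be told apart from a change of the whole lists.

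The difference of the differentiation markers from the stem cell markers depended on most choices. In sgNeg H3K27Ac it was 6.45 by q-value, 5.26 by width, 11.1 with 500 bp, 66.2 by the start of the record and 28.9 at a q-value under 0.01, but −2.95 with 2 kb, −2.03 with CD33 and CD38 counted as stem cell markers, −5.09 without FCGR1A and −16.3 without the ITGAM peak over repeated words, an alternative added after seeing the data. With sgNpm1A it was 29.1 by q-value, 54.4 with 500 bp, 3.09 with 2 kb, 31.3 at a q-value under 0.01, 31.1 with CD33 and CD38 added and 32.9 without FCGR1A, but −16.5 by width, −23.9 by the start of the record and −15.6 without that peak. In sgNeg H3K4me3 it was −55.4 with 2 kb, −46.2 with CD33 and CD38 added and 21.2 without FCGR1A, from 0. The cause was not tested.

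ITGAM was higher with sgNpm1A in 7 of 7 planned settings, of which all but that by the start of the record rest on the peak over repeated words, and without it ITGAM was at 39.0 in sgNeg and 38.8 with sgNpm1A. ITGAX was higher in 5, CD14 in 4, PROM1 in 3 and CD34 in 2 (98.9 against 96.7 with 2 kb). CD34 was lower in 5 and PROM1 in 2, whereas CD33 and CD38 were lower in 7 of 7. The library depth limits what an absent peak can mean.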
